A study of Homo sapiens with 4 samples.

Results

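The stress regulators examined here are 10 genes named *NUPR1*, *DDIT3*, *DDIT4*, *TRIB3*, *CHAC1*, *SESN2*, *STC2*, *ATF3*, *ATF5* and *CEBPB*, out of 20457 gene symbols listed for each library. They were chosen by name, as transcription factors and signalling effectors of the integrated stress response, and all 10 were found and passed the expression filter (a mean of at least 1 TPM over the 4 libraries). The libraries came from HEK293, an established line of human embryonic kidney origin, labelled as wild type and given a negative control siRNA (siControl, 2 libraries) or labelled as a CNOT4 knockdown and given siRNA against *CNOT4* (siCNOT4, 2 libraries). Both groups received 10 nM siRNA for 72 h. The CNOT4 protein is an E3 enzyme that attaches ubiquitin and binds the CCR4-NOT deadenylase complex, and the stated aim was to study its part in codon-usage effects on expression. The labels do not say whether the 2 libraries of a group came from separate cultures, so the p values measure the spread between these libraries, which may be technical. They describe neither the number of siRNAs against *CNOT4* nor a rescue.

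In the integrated stress response, several kinases sense different stresses and phosphorylate the initiation factor eIF2alpha. Phosphorylation lowers general translation but favours translation of *ATF4* mRNA, and the ATF4 protein, a basic leucine zipper (bZIP) factor, pairs with C/EBP factors and activates genes for amino acid supply and for stress signalling. The genes described here are the signalling branch of that programme: further bZIP factors (*DDIT3*, *ATF3*, *ATF5*, *CEBPB*), a small chromatin-associated protein (*NUPR1*), and effectors that act on kinase signalling, glutathione or secretion (*TRIB3*, *DDIT4*, *SESN2*, *CHAC1*, *STC2*). Several of them also respond to p53, to hypoxia or to glucocorticoids.

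Values are TPM, read counts divided by gene length and scaled to the same sum in each library. The steps between the deposited values gave back whole reads for all 19734 features above 0, and the reads assigned to genes numbered between 26942890 and 30341665 per library. *CNOT4* itself had 6.43 and 4.73 TPM in siControl and 3.38 and 3.81 TPM in siCNOT4, a log2 fold change of -0.51 that did not pass the test (limma adjusted p 0.184), against -0.93 after the TMM scaling described below (limma adjusted p 0.0362). It was -0.32 without siControl replicate 1 (limma adjusted p 0.0871) and -0.70 with siControl replicate 2 omitted instead (0.00975). The median log2 fold change of all 14208 tested genes was 0.50, so differences are also given relative to that median. One library stood apart, siControl replicate 2, with a TMM factor of 0.717 against 0.967 to 1.22 in the other 3 libraries. The all-gene median was 0.29 without it and 0.71 without siControl replicate 1. *NUPR1*, *STC2*, *DDIT4*, *CHAC1* and *ATF5* were lower in both siCNOT4 libraries than in either siControl library, which held for 10.6% of tested genes. Of 6 HEK293 markers, *VIM*, *KRT8* and *KRT18* were abundant and *NEFM* stayed below 1 TPM. *PAX2* (1.10 to 1.91 TPM) and *LHX1* (2.02 to 5.04 TPM) were low. The 6 summed to between 1206 and 1422 TPM in siControl and between 933 and 970 TPM in siCNOT4. *KRT18* (197 and 193 TPM against 246 and 264 TPM), *PAX2*, *LHX1* and *NEFM* were nevertheless higher in both siCNOT4 libraries, and *KRT8* overlapped. Such a rise without overlap held for 66.4% of tested genes. *VIM*, which encodes the filament protein vimentin, fell from 917 and 650 to 369 and 354 TPM (log2 fold change -1.09, limma adjusted p 0.0288, and -1.62 after TMM scaling), and its part in the results was not tested. Of 10 markers of other cell types, 8 stayed below 1 TPM in every library. The other two were *EPCAM*, at 238 to 262 TPM over the 4 libraries, and *COL1A1*, at 1.39 and 0.906 TPM in siControl and 5.09 and 6.60 TPM in siCNOT4. The part of *COL1A1*-expressing cells in the results below was not tested.

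Of the 10 stress regulators, 5 were lower in siCNOT4 at a limma adjusted p under 0.05 (*NUPR1*, *STC2*, *DDIT4*, *CHAC1* and *ATF5*), none was higher, and 5 did not pass. At an unadjusted p under 0.05 there were 6, the additional one being *ATF3* in the upward direction. Over all tested genes, 1.3% were called lower, 11.3% higher and 12.6% in either direction. Upward calls made up 89.7% of all calls for TPM as deposited and 51.7% after TMM scaling, which sets the libraries to a common trimmed mean and brought the median of all genes to 0.027. After TMM scaling 7 of the 10 were called lower, the additional ones being *CEBPB* and *TRIB3*, against 4.54% of all tested genes (4.86% higher, 9.4% either). Under quantile normalization 8 were called lower, with *DDIT3* in addition, against 8.23% of all genes (7.11% higher, 15.3% either). With limma-voom on recovered reads and TMM 8 were called lower as well, here with *SESN2* in place of *DDIT3*, against 5.95% (6.3% higher, 12.3% either). In 8 genes both siCNOT4 libraries lay below both siControl libraries, which held for 10.6% of tested genes. In *ATF3* both lay above, which held for 66.4%, and in *SESN2* the groups overlapped. After TMM scaling *SESN2* joined the genes without overlap in the lower direction, and 33.4% of tested genes were then lower and 36.4% higher without overlap. The median log2 fold change of the 10 genes was -0.66 and lay -1.16 from the all-gene median, and 9 of 10 were below it. The 10 genes summed to 1064 and 938 TPM in the siControl libraries and to 572 and 554 TPM in the siCNOT4 libraries.

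**Figure D1:**
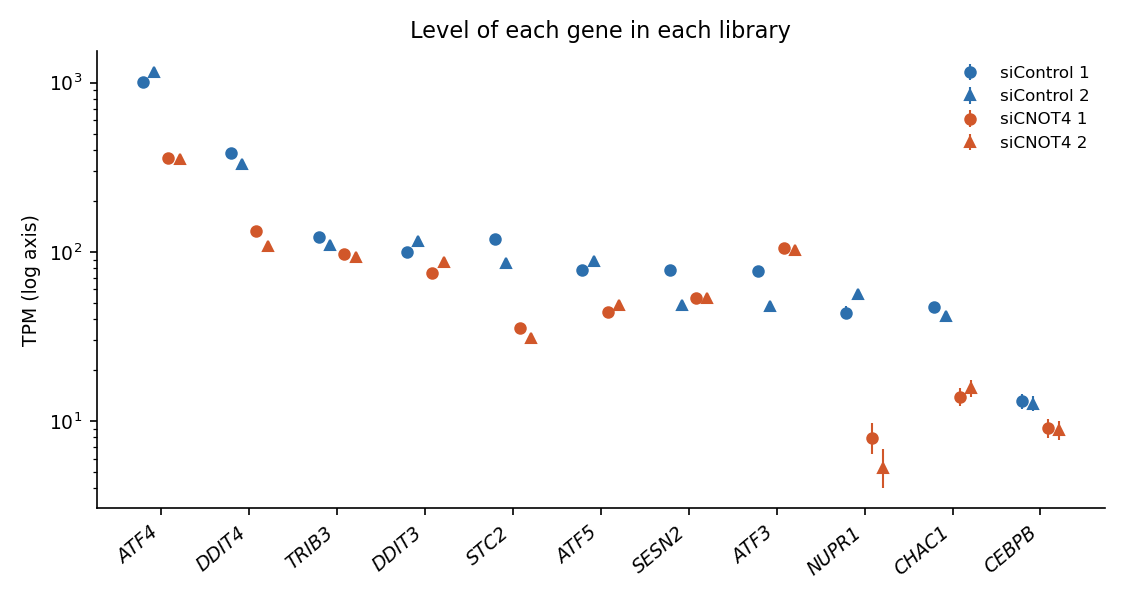
TPM on a log axis for *ATF4* and the 10 stress regulators, 1 point per library, with exact Poisson 95% intervals on the recovered reads (counting error only; intervals smaller than a symbol are hidden). The largest gap between groups among the 10 is that of *NUPR1*, from 43.7 and 56.4 TPM in siControl to 7.91 and 5.31 TPM in siCNOT4, while *ATF3* is the gene whose siCNOT4 points lie above both siControl points.

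*NUPR1*, on chromosome 16, encodes a small, highly basic, intrinsically disordered protein that is induced by many stresses and acts with transcription complexes. It had 43.7 and 56.4 TPM in the siControl libraries and 7.91 and 5.31 TPM in the siCNOT4 libraries. Both siCNOT4 values were far below both siControl values, and the highest ratio of any siCNOT4 value to any siControl value was 0.181. These are bulk samples, in which fewer cells of a kind and less RNA per cell cannot be told apart. The mean fell from 50.1 ± 8.97 to 6.61 ± 1.84 TPM (SD, n = 2 each), which is 7.58-fold lower, and the fitted log2 difference was -2.76 (SE 0.30) at a limma adjusted p of 0.0227. Only 1 of the 14208 tested genes had a more negative log2 fold change. The gene had 517 and 757 reads in siControl but 89 and 59 in siCNOT4, so that counting error alone spans 6.35 to 9.73 TPM in siCNOT4 replicate 1 and 4.04 to 6.84 TPM in replicate 2. In the siCNOT4 libraries *NUPR1* was the least abundant of the 10 genes per length, whereas in siControl it took place 8.

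*DDIT4*, *STC2* and *CHAC1* formed a second level of decrease, each about as large as that of *ATF4* itself. *DDIT4* (also called REDD1), on chromosome 10, encodes an inhibitor of mTORC1, the kinase complex that promotes growth, and acts through the TSC complex. It had 385 and 331 TPM in siControl and 132 and 109 TPM in siCNOT4, with no overlap. The decrease was 2.97-fold, or -1.57 on the log2 scale (SE 0.17, limma adjusted p 0.0227), and *DDIT4* remained the most abundant of the 10 genes in both groups.

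*STC2*, on chromosome 5, encodes stanniocalcin 2, a secreted glycoprotein that inhibits the protease PAPP-A and is induced by endoplasmic reticulum stress. It had 120 and 85.5 TPM in siControl and 35.5 and 31.0 TPM in siCNOT4. The siControl libraries differed from each other by 1.40-fold, less than the 3.08-fold difference between the group means. The log2 fold change was -1.58 (SE 0.23, limma adjusted p 0.0244).

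*CHAC1*, on chromosome 15, encodes an enzyme that degrades glutathione, the main thiol antioxidant of the cell. It had 47.5 and 41.7 TPM in siControl and 13.8 and 15.7 TPM in siCNOT4, again with no overlap and a 3.02-fold lower mean. The log2 fold change was -1.53 (SE 0.23, limma adjusted p 0.0250). The call was lost when either siCNOT4 library was left out, with limma adjusted p values of 0.157 without siCNOT4 replicate 1 and 0.104 without siCNOT4 replicate 2, at log2 fold changes of -1.45 and -1.62. *CHAC1* rested on 960 and 956 reads in siControl and on 266 and 298 in siCNOT4.

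The promoters of 4 genes are shown because 3 of them (*CHAC1*, *DDIT4* and *STC2*) fell together with *ATF4* and the other (*ATF3*) had higher values in siCNOT4. Each line gives the 250 bases before the annotated RefSeq start on build GRCh38.p14, read along the gene, at chr15:40953221-40953470 (plus strand) for *CHAC1*, chr10:72273674-72273923 (plus strand) for *DDIT4*, chr5:173328415-173328664 (minus strand) for *STC2* and chr1:212565157-212565406 (plus strand) for *ATF3*, the first of its 2 listed starts. Capitals mark TGATGNAA on either strand, the core of the C/EBP-ATF response element to which ATF4 binds together with a C/EBP partner.
CHAC1: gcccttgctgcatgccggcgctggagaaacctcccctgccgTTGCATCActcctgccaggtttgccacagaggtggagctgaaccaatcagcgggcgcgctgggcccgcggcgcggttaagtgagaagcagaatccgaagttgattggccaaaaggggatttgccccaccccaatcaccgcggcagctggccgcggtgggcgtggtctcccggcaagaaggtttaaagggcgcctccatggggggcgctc
DDIT4: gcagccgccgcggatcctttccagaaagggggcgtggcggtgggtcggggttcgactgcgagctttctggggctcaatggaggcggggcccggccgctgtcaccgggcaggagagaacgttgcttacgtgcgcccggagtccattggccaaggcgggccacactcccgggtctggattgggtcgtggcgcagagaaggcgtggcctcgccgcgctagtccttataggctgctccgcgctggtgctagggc
STC2: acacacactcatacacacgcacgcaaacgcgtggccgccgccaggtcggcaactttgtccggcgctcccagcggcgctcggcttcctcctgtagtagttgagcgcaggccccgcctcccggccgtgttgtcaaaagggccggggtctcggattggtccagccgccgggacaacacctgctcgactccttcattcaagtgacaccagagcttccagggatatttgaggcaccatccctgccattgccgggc
ATF3: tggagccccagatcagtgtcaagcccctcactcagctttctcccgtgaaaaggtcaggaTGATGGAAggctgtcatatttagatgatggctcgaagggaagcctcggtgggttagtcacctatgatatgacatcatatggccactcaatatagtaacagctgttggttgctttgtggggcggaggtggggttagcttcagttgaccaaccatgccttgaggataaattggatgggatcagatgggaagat

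Matches were sought on both strands in windows of 300 bases, which add the 50 bases after the start. Of the 10 genes, 9 had a listed promoter and *NUPR1* is named only. TGATGNAA was found in 2 of the 9, *CHAC1* and *ATF3*, against 4.46% of all 27305 genes in the table and 11 of 27 listed genes among the other ATF4 targets. Among the 10045 tested features with a listed promoter the share was 2.66%. In the 250 bases before the start alone, 2 of the 9 and 6 of the 27 had a match, against 3.89% of all genes. In *CHAC1* the match begins 209 bases before the start and reads TTGCATCA, the reverse complement of the full TGATGCAA form, and in *ATF3* it begins 191 bases before the start and reads TGATGGAA. In *ATF3* the match lay at the first of its 2 listed starts and not at the other. *DDIT4* and *STC2* had none in this window. Which start is used in these cells, and whether ATF4 binds at these sites, was not tested. The cyclic AMP response element TGACGTCA and the full endoplasmic reticulum stress element (ERSE), neither of which contains TGATGNAA, were found in 0 of the 9 (2.25% and 0.0916% of all genes).

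Among the bZIP factors, *ATF5* was the one whose decrease passed the test. ATF5, encoded on chromosome 19, is closely related to ATF4, shares its mode of translational control and is linked to the mitochondrial stress response. It had 77.7 and 88.7 TPM in siControl and 43.9 and 48.5 TPM in siCNOT4, so the groups did not overlap. The mean was 1.80-fold lower, or -0.83 on the log2 scale (SE 0.18, limma adjusted p 0.0437). Its call was near the threshold. It was lost in 6 of 14 alternatives, including those without siCNOT4 replicate 1 (log2 fold change -0.76, limma adjusted p 0.407) and without siCNOT4 replicate 2 (-0.91, 0.323).

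*CEBPB*, on chromosome 20, encodes C/EBP beta, a dimer partner of ATF4 and DDIT3, and was the least abundant of the 10 in siControl. It had 13.1 and 12.7 TPM in siControl and 9.03 and 8.83 TPM in siCNOT4. Replicates were close and the groups did not overlap, but the log2 fold change of -0.48 (SE 0.26) did not pass the test (limma adjusted p 0.197). After TMM scaling it was -0.97 and did (limma adjusted p 0.0440).

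*DDIT3* (CHOP), on chromosome 12, encodes a bZIP factor that is associated with cell death under prolonged stress. It had 100 and 116 TPM in siControl and 75.0 and 87.0 TPM in siCNOT4. The groups did not overlap, yet the lowest siControl value exceeded the highest siCNOT4 value by little. The log2 fold change was -0.41 with a 95% interval of -0.84 to 0.019 (limma adjusted p 0.130), and -0.91 from the all-gene median. After TMM scaling it was -0.93 (limma adjusted p 0.0654).

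*ATF3*, on chromosome 1, encodes a bZIP factor induced early in many stresses and by growth signals. It had 76.6 and 48.1 TPM in siControl and 105 and 102 TPM in siCNOT4, so that both siCNOT4 libraries were higher. The siControl libraries differed from each other by 1.59-fold, nearly as much as the group means, of which the siCNOT4 mean was 1.66 times the siControl mean. The log2 fold change of 0.76 (SE 0.25) did not pass the test (limma adjusted p 0.0780), and measured from the all-gene median it was 0.26. After TMM scaling it was 0.24 with a 95% interval of -0.16 to 0.64 (limma adjusted p 0.312). The value rose to 1.09 with siControl replicate 1 omitted and dropped to 0.43 with siControl replicate 2 omitted, and *ATF3* passed the test in both cases (limma adjusted p 7.66e-05 and 0.00513), although not when either siCNOT4 library was left out (0.417 and 0.401). With those siControl omissions 70.9% and 47.2% of all tested genes were called higher.

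The kinase-related and metabolic regulators *TRIB3* and *SESN2* had the log2 fold changes nearest to 0 among the 10 for TPM as deposited, whereas *ATF3* was nearest to 0 after TMM scaling and nearest to the all-gene median. TRIB3, encoded on chromosome 20, is a pseudokinase that binds AKT and inhibits ATF4 and DDIT3 activity. It had 122 and 110 TPM in siControl and 96.8 and 93.6 TPM in siCNOT4, without overlap. Its log2 fold change was -0.28 with a 95% interval of -0.67 to 0.10 (limma adjusted p 0.210), against -0.81 after TMM scaling (limma adjusted p 0.0475).

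*SESN2*, on chromosome 1, encodes sestrin 2, which signals low leucine to mTORC1 through the GATOR complexes and is also a p53 target. It had 78.3 and 48.3 TPM in siControl and 53.5 and 53.7 TPM in siCNOT4. The siCNOT4 libraries lay between the siControl libraries. The log2 fold change was -0.20 with a 95% interval of -0.83 to 0.44 (limma adjusted p 0.573). It became 0.15 when siControl replicate 1 was left out and -0.54 when siControl replicate 2 was, so its direction rested on which siControl library was used. After TMM scaling *SESN2* no longer overlapped and stood at -0.71 (limma adjusted p 0.0521).

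**Figure D2:**
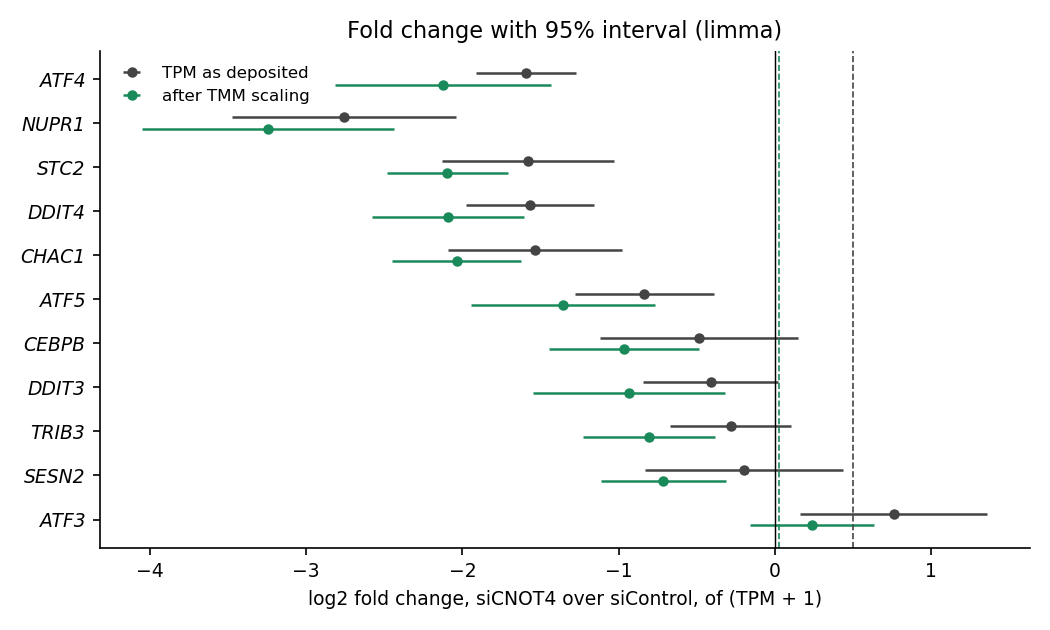
Log2 fold change of TPM + 1, siCNOT4 over siControl, with 95% intervals from limma, for TPM as deposited (grey) and after TMM scaling (green); dashed lines mark the median of all tested genes on each scale (0.50 and 0.027). *NUPR1*, *STC2*, *DDIT4*, *CHAC1* and *ATF5* lie below 0 with their whole interval on both scales, *CEBPB*, *DDIT3*, *TRIB3* and *SESN2* do so after TMM scaling, and the interval of *ATF3* is above 0 as deposited but includes 0 after TMM scaling.

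**Figure D3:**
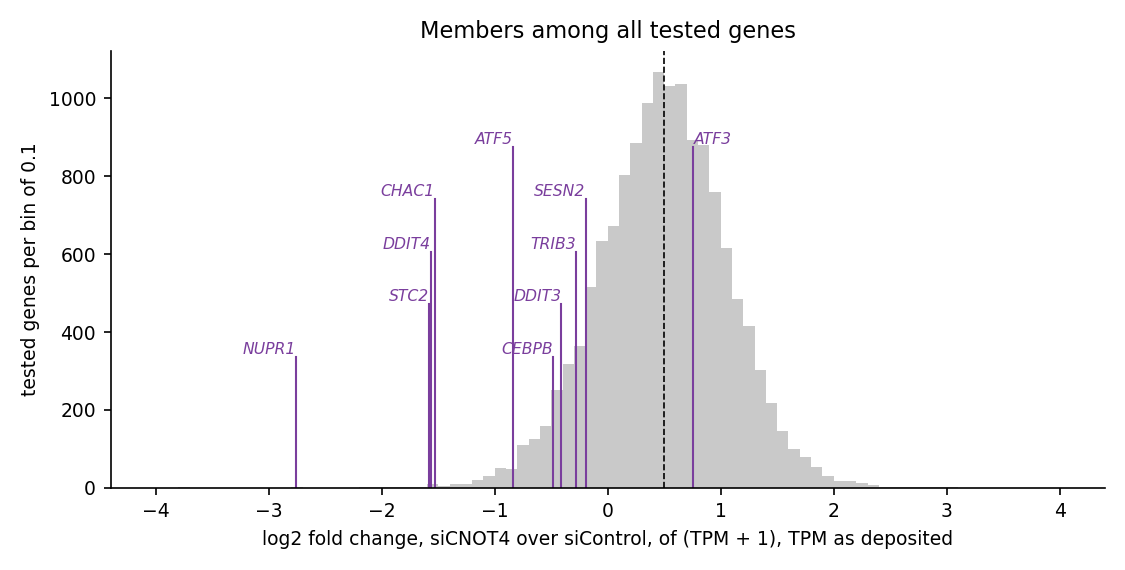
Histogram of the log2 fold changes of the 14208 tested genes (TPM as deposited) with the 10 stress regulators marked by purple lines and the median of all genes (0.50) by a dashed line. *NUPR1* at -2.76 lies at the far left edge, *STC2*, *DDIT4* and *CHAC1* lie in the lower tail, and *ATF3* at 0.76 lies to the right of the median.

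The levels were then set against *ATF4* in the same library, a ratio that scaling of a library does not alter. *ATF4*, the activator of the programme, fell from 1005 and 1151 TPM in siControl to 358 and 352 TPM in siCNOT4, a 3.04-fold lower mean (log2 fold change -1.60, limma adjusted p 0.0227). *DDIT4* stood at 38.3% and 28.8% of the *ATF4* level in siControl and at 36.9% and 30.9% in siCNOT4. *STC2* stood at 11.9% and 7.43% against 9.93% and 8.80%, and *CHAC1* at 4.72% and 3.62% against 3.86% and 4.44%. For these 3 genes the groups overlapped, and the ratio of siCNOT4 to siControl was 1.02, 0.994 and 1.00. *NUPR1* was the one gene with a lower ratio to *ATF4* in both siCNOT4 libraries, which went from 4.35% and 4.90% to 2.21% and 1.51% of its level.

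The other 6 genes had a higher ratio to *ATF4* in both siCNOT4 libraries than in either siControl library. *ATF4* itself lay -2.10 from the all-gene median, and only 0.0915% of tested genes had a more negative log2 fold change. A higher ratio to *ATF4* is therefore not particular to these genes. *ATF3* went from 7.62% and 4.18% to 29.3% and 28.9% of the *ATF4* level, a 5.16-fold higher ratio. *SESN2* (2.64-fold), *TRIB3* (2.48-fold), *DDIT3* (2.27-fold), *CEBPB* (2.10-fold) and *ATF5* (1.68-fold) followed. The exact two-sided permutation p was 0.33 for each of the 7 genes whose groups did not overlap, the smallest that 2 libraries against 2 allow, so these ratios are given as a description.

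**Figure D4:**
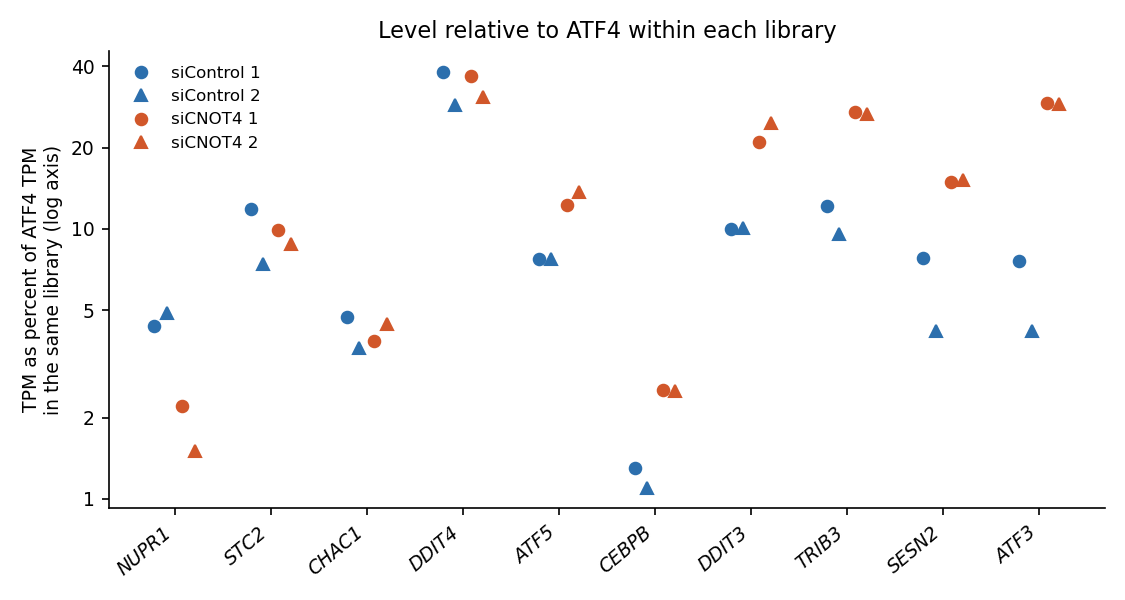
TPM of each stress regulator as a percentage of *ATF4* TPM in the same library, on a log axis, 1 point per library, ordered by the difference between groups. *STC2*, *CHAC1* and *DDIT4* overlap between groups, *NUPR1* is lower in both siCNOT4 libraries, and the 6 genes to the right are higher in both.

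Per length, the order of levels in siControl began with *DDIT4* (358 TPM), followed by *TRIB3*, *DDIT3*, *STC2* and *ATF5*, each of which overlapped its neighbour in the order. *CEBPB* (12.9 TPM) came last without overlap. In siCNOT4 no neighbours overlapped over the 2 libraries. *ATF3* had moved from place 7 to place 2 (104 TPM), while *STC2* had moved from place 4 to place 7 (33.3 TPM). The siCNOT4 replicates were close for *ATF3* and *SESN2*, with ratios of replicate 1 to replicate 2 of 1.03 and 0.996, whereas in siControl those ratios were 1.59 and 1.62.

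Close relatives of the 10 genes were then compared with them. Of 20 paralogs listed in the files 19 were tested, of which 2 were called lower (*ATF4* and *JDP2*) and 1 higher (*DDIT4L*). Over all tested genes 1.3% were called lower and 11.3% higher. After TMM scaling 5 paralogs were called lower and none higher, against 4.54% and 4.86% of all tested genes. Under quantile normalization 9 were called lower and 1 higher, against 8.23% and 7.11%. *JDP2*, which encodes a bZIP repressor, had 8.45 and 6.66 TPM in siControl and 2.26 and 1.67 TPM in siCNOT4 (log2 fold change -1.53, limma adjusted p 0.0288). *DDIT4L*, encoding the REDD2 protein, had 2.99 and 1.99 TPM in siControl and 7.04 and 6.29 TPM in siCNOT4 (1.15, limma adjusted p 0.0459, and 0.74 with an adjusted p of 0.0541 after TMM scaling). *DDIT4* therefore made up 99.2% and 99.4% of the summed TPM of both genes in siControl and 94.9% and 94.5% in siCNOT4.

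*CHAC1* and *CHAC2*, an enzyme of the same reaction, changed their proportions most among the families examined. *CHAC2* had 33.8 and 24.5 TPM in siControl and 29.6 and 32.9 TPM in siCNOT4, with overlap, and *CHAC1* made up 58.4% and 62.9% of the pair in siControl but 31.9% and 32.3% in siCNOT4. *STC2* made up 90.2% and 92.3% of the stanniocalcin TPM in siControl and 82.2% and 85.3% in siCNOT4, and *STC1* had a log2 fold change of -0.52 (limma adjusted p 0.295). *SESN2* made up 48.0% and 45.2% of the sestrin TPM in siControl and 39.0% and 40.5% in siCNOT4. Here *SESN3* had 19.9 and 7.66 TPM in siControl and 31.2 and 28.8 TPM in siCNOT4 (limma adjusted p 0.0927), and *SESN1* stood at -0.16 (0.546). After TMM scaling *SESN1* was called lower (-0.68, limma adjusted p 0.0480).

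In the Tribbles family *TRIB3* made up 65.4% and 70.2% of the TPM in siControl and 72.1% and 70.9% in siCNOT4. Its relatives *TRIB1* and *TRIB2* had log2 fold changes of -0.69 and -0.38 (limma adjusted p 0.0926 and 0.304), and measured from the all-gene median the values of *TRIB3*, *TRIB1* and *TRIB2* were -0.78, -1.19 and -0.88. After TMM scaling *TRIB1* and *TRIB2* were called lower (-1.19 and -0.89, limma adjusted p 0.0286 and 0.0359). *CEBPB* was a minor C/EBP transcript, 4.27% and 5.87% of the family TPM in siControl and 4.07% and 3.99% in siCNOT4. The main one was *CEBPG*, the usual dimer partner of ATF4, with 257 and 164 TPM in siControl and 187 and 183 TPM in siCNOT4. *CEBPA*, *CEBPD* and *CEBPG* had log2 fold changes of -0.40, -0.46 and -0.15, none past the test (limma adjusted p 0.190, 0.159 and 0.615), and *CEBPE* was below the expression filter. Among the ATF and BATF genes, *ATF1*, *ATF2*, *ATF6*, *ATF6B*, *ATF7* and *BATF2* had positive log2 fold changes of 0.69 to 1.42 and *BATF3* had -0.79, again with none past the test (limma adjusted p 0.0512 to 0.165). Measured from the all-gene median the positive values were 0.19 to 0.92, and *BATF3* stood at -1.29.

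**Figure D5:**
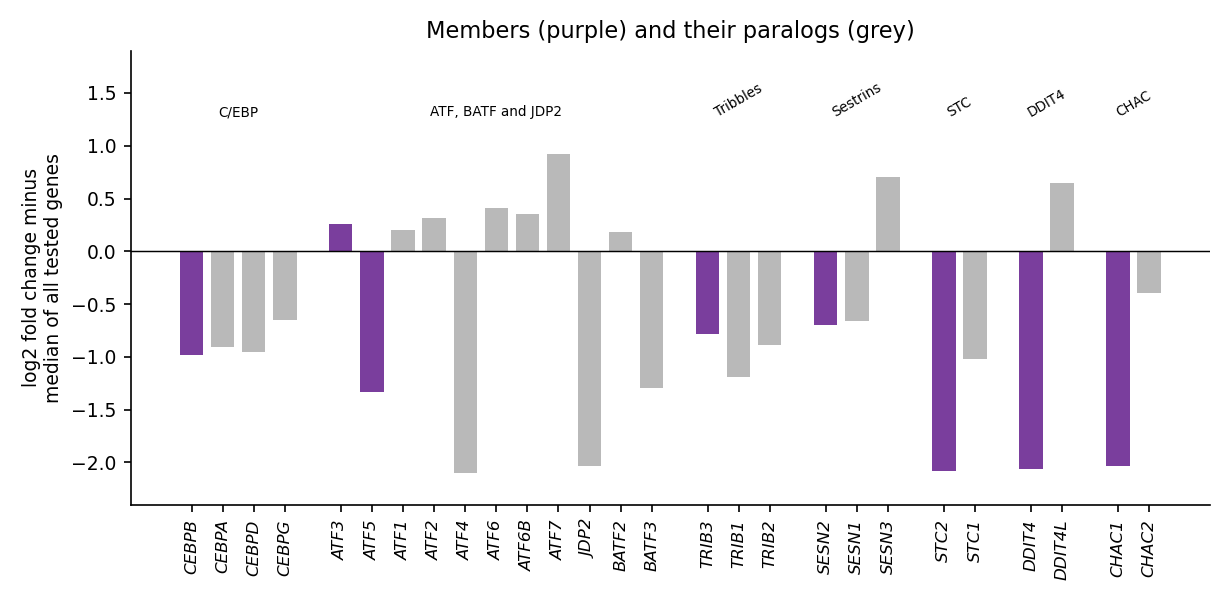
Log2 fold change minus the median of all tested genes for the stress regulators with listed paralogs (purple) and those paralogs (grey), grouped by family, 1 bar per gene, TPM as deposited. The bars of *DDIT4* and *DDIT4L* point in opposite directions, that of *CHAC1* is longer than that of *CHAC2*, and in the Tribbles family all 3 bars lie below 0.

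Further genes of the stress programme were counted from lists. Of 35 other ATF4 targets, which serve mainly amino acid synthesis, transport and tRNA charging, 8 were called lower, none higher, and 27 did not pass. Over all tested genes 1.3% were called lower and 11.3% higher. The median of the 35 targets was -0.95 relative to all tested genes, with 34 of 35 below the median of all genes. After TMM scaling 22 of them were called lower, against 4.54% of all tested genes. The 5 largest called decreases among those with a mean of at least 5 TPM were in *EIF4EBP1*, a repressor of cap-dependent translation (log2 fold change -3.80), the stress hormone *GDF15* (-2.14), the proline synthesis enzyme *PYCR1* (-1.86), the mitochondrial folate enzyme *MTHFD2* (-1.25) and the serine synthesis enzyme *PHGDH* (-0.88). *EIF4EBP1* had 409 and 501 TPM in siControl and 32.5 and 30.9 TPM in siCNOT4, and was the gene with a more negative fold change than *NUPR1*. *GDF15* lost its call without siCNOT4 replicate 1 (limma adjusted p 0.129) and without siCNOT4 replicate 2 (0.0755), and *PHGDH* likewise (0.0599 and 0.229). The same 2 omissions ended the calls of *JDP2*, *DDIT4L*, *EIF2S1*, *PPP1R15B*, *GCLC*, *HSPA5*, *DNAJC3*, *NDRG1*, *TP53I3*, *TP53INP1* and *MDM2* (limma adjusted p 0.0863 to 0.451), but not those of *EIF4EBP1*, *PYCR1* and *MTHFD2*.

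Upstream of *ATF4*, 2 of 8 genes were called higher, against 11.3% of all tested genes, and apart from *ATF4* none was called lower. They were *EIF2S1*, which encodes eIF2alpha (0.88, limma adjusted p 0.0396), and *PPP1R15B*, a constitutive subunit of the eIF2alpha phosphatase (1.42, 0.0495), and both missed the threshold after TMM scaling (0.147 and 0.0660). The kinase genes *EIF2AK1*, *EIF2AK2*, *EIF2AK3* and *EIF2AK4* had log2 fold changes of -0.014, 1.31, 0.75 and 0.67 with limma adjusted p values of 0.952, 0.0593, 0.196 and 0.139, and the inducible phosphatase subunit *PPP1R15A* had 0.34 (0.158). Relative to the all-gene median these values were -0.51, 0.81, 0.25, 0.17 and -0.16.

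Of 6 genes described as targets of DDIT3 none was called and 3 had an unadjusted p under 0.05, while 12.6% of all tested genes were called. The death-receptor gene *TNFRSF10B*, the oxidase gene *ERO1L* and the BH3-only genes *BCL2L11* and *PMAIP1* had log2 fold changes of 0.60, 1.03, 0.62 and 0.56, and the BH3-only gene *BBC3* had -0.85 (limma adjusted p 0.0599 to 0.238 over these 5 genes). Relative to the all-gene median the values of these 5 genes, in the order named, were 0.098, 0.53, 0.12, 0.058 and -1.35. After TMM scaling *BBC3* was called lower (-1.35, limma adjusted p 0.0363), against 4.54% of all tested genes, and none of the 6 was called higher.

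Of 14 genes whose proteins act directly with these regulators (TSC and GATOR2 components, AKT, the ligase gene *RFWD2* and glutathione synthesis), 1 was called, the glutathione synthesis gene *GCLC* (0.93, limma adjusted p 0.0481), and after TMM scaling it missed the threshold (0.101). Over all tested genes 11.3% were called higher. The median of the 14 genes relative to all tested genes was -0.037.

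Other inputs to the same genes were counted in the same way. Of 17 targets of the ATF6 and XBP1 arms of the unfolded protein response, 2 were called higher and none lower, with a median of -0.052 relative to all tested genes. They were *HSPA5*, the main chaperone of the endoplasmic reticulum (0.57, limma adjusted p 0.0493, and 0.039 after TMM scaling), and the eIF2alpha kinase inhibitor gene *DNAJC3* (1.22, 0.0494, and 0.73 after TMM scaling). Both missed the threshold after TMM scaling (limma adjusted p 0.894 and 0.0523), and for TPM as deposited 11.3% of all tested genes were called higher. Under quantile normalization 5 of the 17 were called higher, against 7.11% of all tested genes. Of 15 tested targets of hypoxia-inducible factors, 1 was called lower (*NDRG1*, -0.81, limma adjusted p 0.0437) and none higher, with a relative median of -0.51. Over all tested genes 1.3% were called lower. After TMM scaling 2 of these targets were called lower, *NDRG1* and *VEGFA* (limma adjusted p 0.0282 each), against 4.54% of all tested genes. Of 16 p53 targets, 3 were called higher (*TP53I3*, 1.50, *TP53INP1*, 1.40, and *MDM2*, 1.06, limma adjusted p 0.0288, 0.0496 and 0.0333) and none lower, with a relative median of 0.014, and all 3 missed the threshold after TMM scaling (0.0541, 0.0534 and 0.0714). The p53 targets *BBC3* and *SESN1* were called lower after TMM scaling (limma adjusted p 0.0363 and 0.0480). Under quantile normalization 3 p53 targets were called lower and 2 higher, against 8.23% and 7.11% of all tested genes.

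The 3 features outside the group whose 4 values most resembled those of *NUPR1* were *GDF15*, *TSC22D3* and *NME2*. Likeness was the Euclidean distance over the 4 libraries between log2(TPM + 1) values, each minus its siControl mean, among 11385 features with a mean of at least 5 TPM. The distances were 1.01, 1.05 and 1.26. *TSC22D3*, a glucocorticoid-induced gene, fell by 2.07 on the log2 scale, and *NME2*, which encodes a nucleoside diphosphate kinase and shares exons with a readthrough transcript, fell by 1.91 (limma adjusted p 0.0227 each). *NME2* had 1420 and 2308 TPM in siControl and 491 and 469 TPM in siCNOT4. Because the 3 features were picked by likeness to *NUPR1* in these same libraries, their decreases and p values follow from the choice. Within the group, *DDIT4* (1.74), *STC2* (1.78) and *CHAC1* (1.84) were the nearest to *NUPR1* and *ATF3* (5.04) was the farthest.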

How the data were processed

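RNA was measured by poly(A)-selected stranded sequencing of total RNA, per the labels' protocols. The authors deposited 1 table of TPM per library. The submitters' processing notes name FastQC 0.11.2, STAR 2.5.3a, featureCounts and hg19. The annotation, the gene lengths and the use of strand in counting are not given in the sources used here, so reads of overlapping genes on opposite strands may not be separated.

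Within a gene, TPM steps by what 1 read is worth. These steps, with whole-number gene lengths scaled on 782 features of known annotated length (GENCODE 29), returned whole reads in every library for 100% of features above 0 (tolerance 1e-04 reads plus 2e-08 of the value). Where all 4 counts of a gene share a factor, annotated lengths decided it (5.38% of tested features), and reads of single genes could be understated by such a factor. Intervals on reads are exact Poisson intervals at 95% and cover counting error only, since the reads carry no molecular identifiers.

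Groups came from sample titles. Values were tested as log2(TPM + 1), which understates changes of low genes, for 14208 features with a mean of at least 1 TPM, using limma 3.58.1 (R 4.3.3; lmFit, eBayes with trend, 2 libraries against 2, no covariates) and Benjamini-Hochberg adjustment over all features, at a threshold of 0.05. Alternatives were another pseudocount (0.1), no filter, a mean of at least 5 TPM, TMM, quantile or median scaling, removal of length and GC trends, leaving out each library, a replicate block and limma-voom on the recovered reads. The last was chosen after seeing the data. The fit was first tried on simulated data with known changes. Named were the 10 genes, *CNOT4*, *ATF4*, tested paralogs, all genes of lists of 8 or fewer, up to 5 lower and 3 higher called genes per other list with a mean of at least 5 TPM, and the 3 features nearest to *NUPR1*. *CEBPE*, a paralog under the filter, was named after its values were seen. The genes and lists were chosen with earlier results of these data known. Promoters are RefSeq's on GRCh38.p14, a later build than hg19, matched by symbol (9 of 10), and no coordinates were converted.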

Additional observations from a re-analysis of the deposited data

How the results depend on the processing

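Over 14 alternatives, of which the 2 with voom were chosen after seeing the data, *NUPR1*, *STC2* and *DDIT4* kept their direction and their call, with log2 fold changes of -3.47 to -2.51, -2.18 to -1.34 and -2.13 to -1.43. The number of genes called was 1792 for TPM as deposited and 558 with a pseudocount of 0.1, 908 without a filter, 147 at a mean of at least 5 TPM, 543 after median centring, 3410 after removal of length and GC trends and 450 to 11311 when 1 library was left out. The stress regulators called lower numbered 8 under quantile normalization (8.23% of all tested genes), 9 after trend removal (1820 of 13073 genes) and 8 with voom and TMM (5.95%). Counts of listed genes with 1 library left out are not given here, since 1 group then holds 1 library. The relative median of the stress regulators was -0.85 after trend removal and -1.43 to -0.93 with 1 library left out. Of the other ATF4 targets, 4 were called lower without a filter and 4 at a mean of at least 5 TPM, 22 after TMM, 18 under quantile normalization, 14 after centring, 29 after trend removal, 18 with voom, 21 with voom and TMM, and 3 to 28 with 1 library left out (0 to 9 higher). Their relative median was -0.80 without a filter, -0.76 under quantile normalization and -1.04 to -0.86 with 1 library left out. TGATGCAA alone was found in 1 promoter. Changes of sign occurred when 1 library was left out (*SESN2* -0.54 to 0.15, *CEBPG* -0.48 to 0.17, *SESN1* -0.34 to 0.011, *EIF2AK1* -0.13 to 0.099, *CHAC2* -0.11 to 0.33), after TMM (*CHAC2* -0.40, *PPP1R15A* -0.18), under quantile normalization (*CHAC2* -0.38), after centring (*CHAC2* -0.45, *PPP1R15A* -0.22, *PMAIP1* -0.0031), after trend removal (*CHAC2* -0.37, *ATF1* -0.025, *ATF2* -0.034, *BCL2L11* -0.099, *PMAIP1* -0.039, *HSPA5* -0.0031), with voom (*CHAC2* -0.17) and with voom and TMM (*CHAC2* -0.43, *PPP1R15A* -0.19). What caused these changes in calls and signs was not tested. Among the 10 genes the lowest read number was 59, for *NUPR1* in siCNOT4 replicate 2.

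With the replicate number as a replicate block, 3655 genes were called (313 lower and 3342 higher of 14208), with 5 stress regulators lower and 1 higher (*ATF3*, limma adjusted p 0.0239), and 13 other ATF4 targets lower. The numbers are not stated to pair the libraries, and the deviations of same-numbered libraries correlated at 0.171 across genes.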
